A study of Mus musculus with 8 samples.

Results

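Homozygous knock-in mouse embryos (HOMO) were compared with embryos that carried the same insertion on the maternal chromosome only (MKI). In this mouse model 3 polyadenylation cassettes, signals that end transcription early, were placed in the promoter of Gtl2 (also called Meg3) in the imprinted Dlk1-Dio3 domain. HOMO embryos have the insertion on the maternal and the paternal copy and MKI embryos on the maternal copy, so the pair shares the maternal insertion and differs by the paternal one. Wild type embryos (WT) have no insertion and paternal knock-in embryos (PKI) have it on the paternal copy only. The labels put 4 of the 8 samples in this comparison, 2 per genotype. Each of the 3 deposited tables (mRNA, long non-coding RNA and microRNA) holds 1 column per genotype, and the labels do not say whether a column is 1 library or a combination of libraries.

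Whole embryos were the material. The design text gives embryonic day 12.5 for all genotypes, whereas the sample titles give E12.5 for WT, E12.6 for PKI, E12.7 for MKI and E12.8 for HOMO. Nothing in the labels states the number of founder lines, the litters or any pooling of embryos. Where 4 values stand in a row they follow the order WT, PKI, MKI, HOMO. With 1 column per genotype no test and no p-value were possible, and a feature was called higher or lower where it passed 2-fold on the log2(value + 0.5) scale. Genes were kept at 1 FPKM or more, long non-coding transcripts at 0.5 FPKM or more and microRNAs at 10 RPM or more, in at least 2 of the 4 columns.

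Imprinted genes are read from the chromosome copy of 1 parent. In the Dlk1-Dio3 domain the paternal copy normally gives the protein-coding genes Dlk1, Rtl1 and Dio3, and the maternal copy gives Gtl2, other long non-coding RNAs and a long series of microRNAs. Dlk1 encodes a membrane protein of the Notch ligand family that is abundant in embryos, Rtl1 derives from a retrotransposon and is needed in placental vessels, and Dio3 inactivates thyroid hormone.

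The microRNAs that carry the comparison are shown with the seed, bases 2 to 8, in capitals. MicroRNAs bind target transcripts mainly through the seed. The first 7 lie in the domain and include members that were higher in HOMO, members that were lower and 1 at the same level (miR-370-3p), and the other sequences lie elsewhere and include the largest differences of the table. Sequences are from RefSeq, build GRCm38.p6, 5′ to 3′.
miR-127-3p: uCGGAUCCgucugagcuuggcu
miR-434-3p: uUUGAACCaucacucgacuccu
miR-136-5p: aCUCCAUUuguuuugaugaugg
miR-136-3p: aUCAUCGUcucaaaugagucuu
miR-370-3p: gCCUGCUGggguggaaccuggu
miR-539-5p: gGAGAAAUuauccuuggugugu
miR-541-5p: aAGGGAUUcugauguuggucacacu
miR-29a-3p: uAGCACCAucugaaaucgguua
miR-29b-3p: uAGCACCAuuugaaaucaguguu
miR-29c-3p: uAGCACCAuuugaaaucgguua
miR-33-5p: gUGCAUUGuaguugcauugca
miR-132-5p: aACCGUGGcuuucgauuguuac
miR-132-3p: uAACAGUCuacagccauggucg
miR-212-3p: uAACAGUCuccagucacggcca
miR-29a-3p, miR-29b-3p and miR-29c-3p share the seed AGCACCA, and miR-132-3p and miR-212-3p share the seed AACAGUC.

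The MKI column stood apart from the other columns, which bears on every mRNA result below. Of 13279 tested genes, 1760 were at least 2-fold lower in MKI than in each of the other 3 columns and 36 at least 2-fold higher. HOMO was that far above all others for 12 genes and that far below for 29. Across genes the log2 values of MKI correlated with the other columns at r = 0.864 to 0.882, and the others with each other at 0.961 to 0.975 (13279 genes, which are not independent replicates). Markers of liver (Alb), blood (Hbb-y), muscle (Myog) and neurons (Tubb3) had values in all 4 columns.

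Among mRNA genes, 2615 were at least 2-fold higher in HOMO than in MKI (19.7% of those tested) and 484 were lower (3.64%). The median difference over all tested genes was 0.06 on the log2 scale. Of the 2615 higher genes, MKI held the lowest of the 4 values for 2578 and HOMO the highest for 1233. Of the 484 lower genes, MKI held the highest value for 451 and HOMO the lowest for 414. The 2-fold calls split as 84.4% higher under the deposited scaling and as 61.4% higher after quantile normalization, which moved the median of all genes to -0.13.

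**Figure D1:**
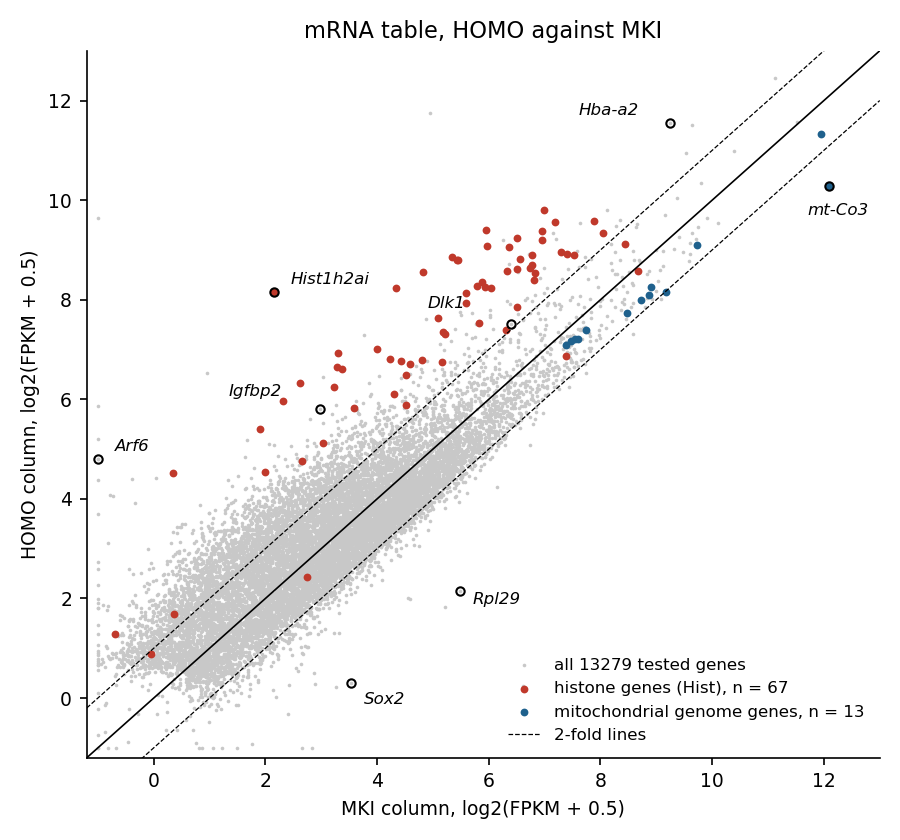
Each point is 1 of 13279 genes, with log2(FPKM + 0.5) in MKI on the horizontal axis and in HOMO on the vertical axis; the solid line marks equal values and the dashed lines 2-fold. Of 67 histone genes 62 lie above the upper dashed line, and all 13 genes of the mitochondrial genome lie below the solid line.

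Dlk1 was the protein-coding gene of the domain with the highest level and was higher in HOMO. Dlk1 (ENSMUSG00000040856; chromosome 12, 109452485 to 109463336, GRCm38.p6) measured 80.5 FPKM in WT and 55.7 in PKI, against 83.4 in MKI and 181 in HOMO. The value of HOMO was above each of the others, and MKI and WT differed little. The difference between HOMO and MKI was 1.11 on the log2 scale, and 0.68 after the median difference of genes of similar span was subtracted. Rtl1 (chromosome 12, 109564900 to 109604418) measured 1.02, 0.61, 2.28 and 2.51 FPKM in the 4 columns. Rtl1 was thus at like levels in HOMO and MKI, with a difference of 0.11. Dio3 (chromosome 12, 110279230 to 110281097) measured 0.57, 0.42, 0.22 and 1.42 FPKM in the same order, under the level filter, so it was not tested.

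Gtl2 itself was not analysed here. None (0) of the 7 listed long non-coding RNAs of the maternal copy was matched to a symbol in the mRNA table, and the transcripts of the long non-coding table are not paired with names. The microRNAs of the domain were measured, and they were far below WT in both genotypes compared. The 77 tested domain microRNAs summed to 136997 RPM in WT and 124807 in PKI, against 4075 in MKI and 4252 in HOMO. MKI thus held 2.97% of the WT sum and HOMO 3.10%. All 77 were at least 2-fold below WT in MKI, and all 77 in HOMO, where the highest reached 16.0% of WT. Many of them passed the 10 RPM filter only through WT and PKI, so these counts are in part set by the filter.

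The domain sum was nearly the same in HOMO and MKI. The ratio of HOMO to MKI was 1.04 (95% exact conditional interval 1.03 to 1.06, 34090 and 35204 reads), an interval that covers counting error only. The intervals rest on 8016848 reads in HOMO and 8638401 in MKI, recovered from the deposited RPM. PCR copies are not told apart in them, so the true error is larger. Among the 77 members 8 were at least 2-fold higher in HOMO (10.4%) and 2 were lower (2.6%), beside 16 of 505 higher (3.17%) and 3 lower (0.594%) over all tested microRNAs. The 505 include the 77, and outside the domain 1.87% were higher. Many domain members reached 10 RPM only in WT and PKI. Their median was 67 reads in MKI and 64 in HOMO, against 1050 and 1059.5 outside the domain. The shares are therefore not like for like, and the part of counting error in them was not tested. The median log2 difference was 0.16 in the domain and 0.13 over all microRNAs.

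The most abundant members went in both directions. miR-127-3p measured 26481 RPM in WT and 26139.5 in PKI, against 455 in MKI and 794 in HOMO. miR-541-5p measured 19152, 23305 and 965 RPM in WT, PKI and MKI and 549 in HOMO. So miR-127-3p was 1.75-fold of its MKI level in HOMO (interval 1.68 to 1.82), and miR-541-5p was 0.57-fold (0.55 to 0.59). miR-370-3p was at 399 RPM in MKI and 398 in HOMO, a ratio of 1.00 (0.95 to 1.05). The ratios of miR-381-3p, miR-434-5p and miR-379-5p lay between 1.14 and 1.36.

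The 8 higher members were miR-136-5p, miR-376b-5p, miR-136-3p, miR-770-3p, miR-434-3p, miR-1197-3p, miR-433-5p and miR-412-3p. miR-136-5p measured 321 RPM in WT and 220.3 in PKI, against 5.33 in MKI and 18.1 in HOMO, a ratio of 3.40 between HOMO and MKI (2.42 to 4.84). The other arm of the same hairpin, miR-136-3p, measured 461, 488, 10.5 and 27.1 RPM, a ratio of 2.57 (2.00 to 3.32). Both arms of this hairpin were therefore higher in HOMO. miR-434-3p measured 38.5 RPM in MKI and 85.2 in HOMO, against 2042 in WT. miR-412-3p rested on 2 reads in MKI and 8 in HOMO, and its interval of 0.86 to 41.7 includes equality. The lower members were miR-539-5p, at 3.36 RPM in MKI and 0.37 in HOMO (29 and 3 reads), and miR-370-5p, at 5.21 and 1.75 RPM (45 and 14 reads). The intervals lay wholly beyond 2-fold for 3 of the 8 higher members and 1 of the 2 lower ones. With TMM factors as the scaling, which moved the median of all microRNAs from 0.13 to -0.02, 5 members were higher and 4 lower, and the domain median was 0.02.

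The domain microRNAs were also compared by position. RefSeq placed 74 of the 77 members on chromosome 12, in 3 groups separated by gaps of more than 10 kb. The first group (109563744 to 109595387) holds 19 members from 11 hairpins and includes microRNAs transcribed antisense to Rtl1. It summed to 906 RPM in MKI and 1389 in HOMO, a ratio of 1.53 (1.49 to 1.58), with 5 members at least 2-fold higher and none (0) lower. The second group (109611556 to 109618326) holds 4 members and had a ratio of 0.99 (0.95 to 1.04). The third group (109709065 to 109747949) holds 51 members from 33 hairpins and summed to 2738 RPM in MKI and 2432 in HOMO, a ratio of 0.89 (0.87 to 0.91). The sums turn on abundant members. Without miR-541-5p the ratio of the third group was 1.06 (1.04 to 1.09), on the other side of 1, and without miR-127-3p that of the first was 1.32 (1.26 to 1.38). The median differences of the groups were 0.19, 0.16 and 0.14, and the rank correlation of the difference with position was -0.03 over the 74 members. Members share transcripts and libraries and are not replicates.

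**Figure D2:**
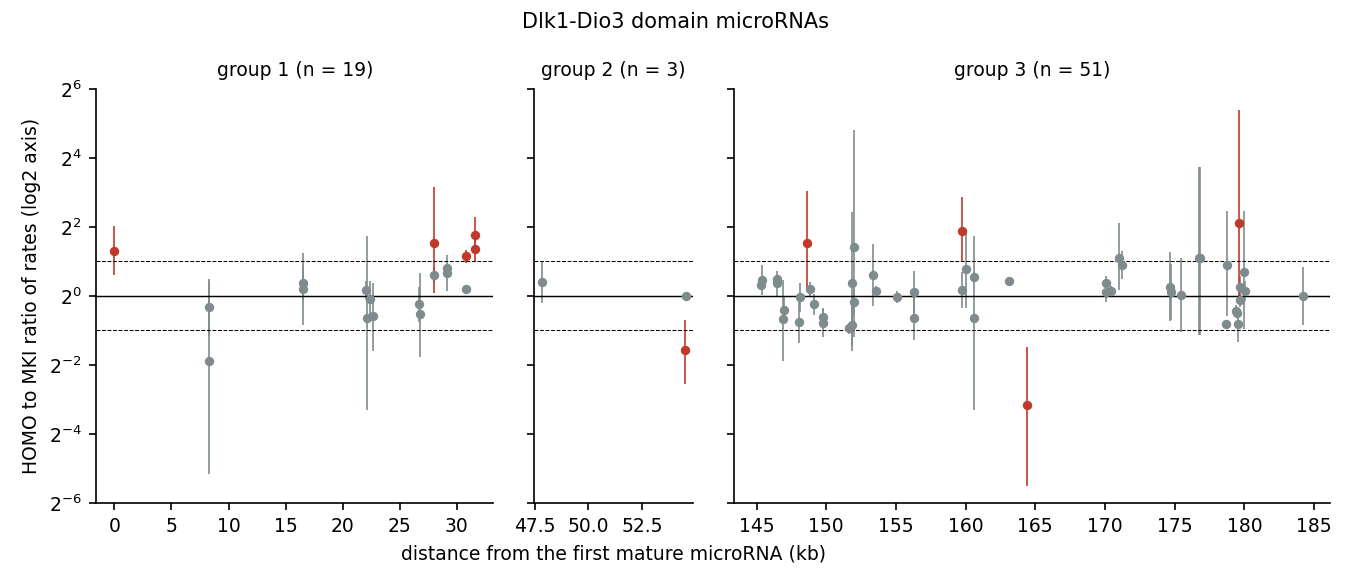
The ratio of HOMO to MKI is plotted on a log2 axis against the distance in kb from the first mature microRNA, for 73 placed members with reads in both columns; bars are 95% counting intervals, red points passed 2-fold on the log2(RPM + 0.5) scale, and dashed lines mark a 2-fold ratio without the added 0.5, so 5 points of few reads lie beyond the lines and are not red. In the first group 5 members are red and these 5 lie above 1; the third group has members on both sides, with the lowest, miR-539-5p, at 0.11.

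Outside the domain 8 of 428 microRNAs were at least 2-fold higher in HOMO (1.87%) and 1 was lower (0.234%). miR-29a-3p measured 38.4 RPM in WT and 37.7 in PKI, against 54.2 in MKI and 463 in HOMO. HOMO was far above the other 3 columns, with a ratio to MKI of 8.54 (7.75 to 9.42). The family members with the same seed had too few reads to be tested, at 2.55 RPM in MKI and 10.7 in HOMO for miR-29b-3p and 1.97 and 5.61 for miR-29c-3p. Their ratios were 4.21 (2.61 to 7.07) and 2.85 (1.60 to 5.32). The other arm of the miR-29c hairpin, miR-29c-5p, measured 14.2 RPM in MKI and 9.60 in HOMO.

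miR-33-5p, whose host gene regulates sterol synthesis, measured 11.3, 5.06, 3.70 and 36.2 RPM in the 4 columns. Its ratio of 9.77 (6.77 to 14.5) was the largest of the tested microRNAs. The other arm, miR-33-3p, did not share this difference, at 26 reads in MKI and 19 in HOMO. miR-150-5p, known from lymphocytes, measured 5.79 RPM in MKI and 32.6 in HOMO. miR-132-5p measured 12.3 and 46.5 RPM and miR-132-3p 24.8 and 54.5, so both arms of that hairpin were higher. miR-212-3p, from the neighbouring hairpin and with the seed of miR-132-3p, had 26 and 38 reads, with an interval of 0.93 to 2.70. The remaining calls were novel_miR_205, a small RNA named by the authors, miR-293-3p, miR-1306-3p and, in the lower direction, miR-1969 at 16.9 RPM in MKI and 3.62 in HOMO. HOMO was at least 2-fold above all other columns for 5 microRNAs (miR-29a-3p, miR-33-5p, miR-132-5p, miR-150-5p and novel_miR_205). None (0) of the 230 outside microRNAs that reached 100 RPM in at least 2 columns was called.

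The genes for which HOMO itself stood apart were few. Beside Dlk1 they included 7 named genes on the high side: Hist2h2aa1, Zfp146, Slc16a3, Tac2, H2-Q7, Gm43720 and Zfp961. These genes were singled out after their values were seen. Slc16a3, a transporter that exports lactate, measured 5.00 FPKM in WT and 4.95 in PKI, against 1.31 in MKI and 11.0 in HOMO. Tac2, which encodes a neuropeptide, measured 1.34, 1.96, 0.69 and 5.10 FPKM. On the low side Sox2, a transcription factor of neural progenitors, measured 9.51 FPKM in WT and 3.21 in PKI, against 11.1 in MKI and 0.73 in HOMO. Other neural progenitor genes did not show such a difference: of 17 tested, Sox2 was the only member at least 2-fold lower, Hes5 and Sox3 were higher, and the list median was -0.08.

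Rpl29, a ribosomal protein gene, measured 84.8, 98.4, 44.3 and 3.91 FPKM. Gm10260, at 89.2, 134, 97.7 and 0.68 FPKM, had the largest difference in the lower direction. Gm10260, Gm11361, Gm10184 and Gm7879, all low in HOMO, are pseudogenes in RefSeq. Reads of such copies can also come from their parent genes, and their values are uncertain for that reason. Of the 29 genes for which HOMO stood apart on the low side 20 were newly assembled by the authors.

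**Figure D3:**
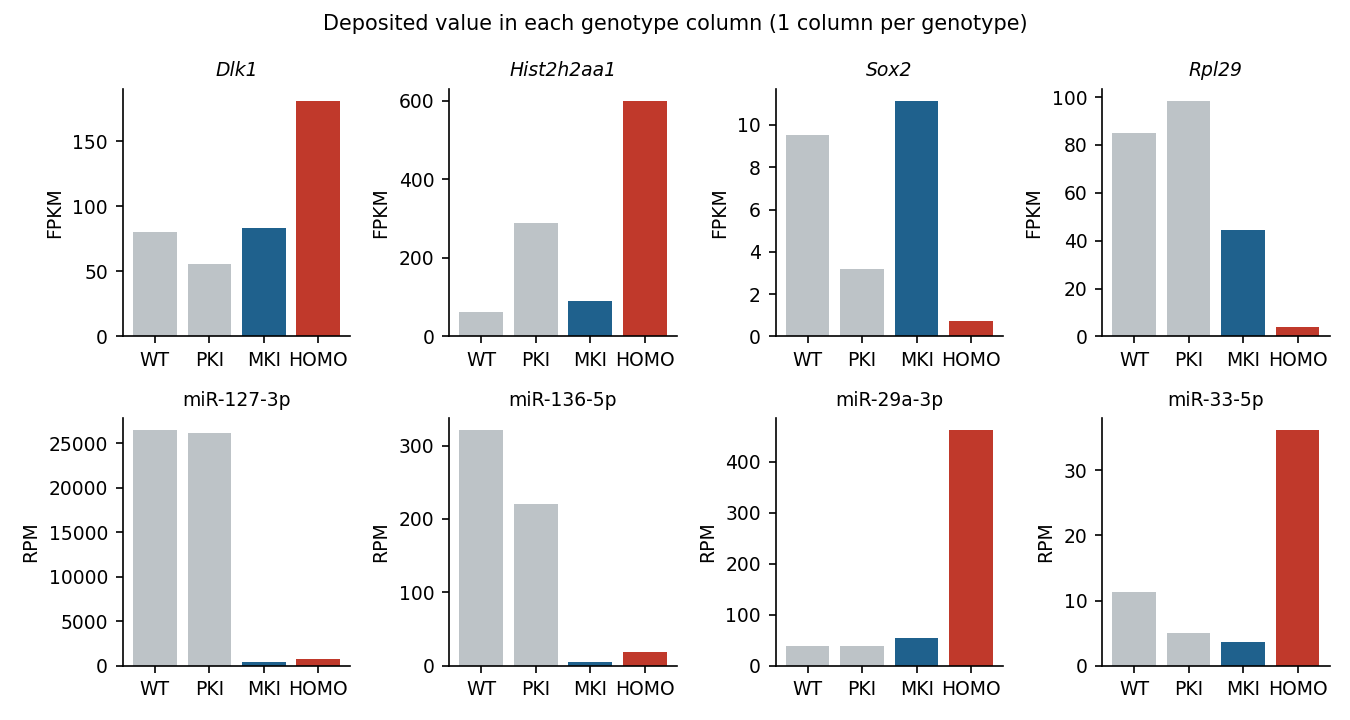
Bars give the deposited value in each genotype column, in FPKM for 4 genes and in RPM for 4 microRNAs; there is 1 column per genotype and no error bar. Dlk1, Hist2h2aa1, miR-29a-3p and miR-33-5p are highest in HOMO, Sox2 and Rpl29 lowest, and miR-127-3p and miR-136-5p are low in MKI and HOMO alike.

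Histone genes made up the most uniform group among the higher genes. Of 67 tested genes with a Hist symbol, 62 were at least 2-fold higher in HOMO and none (0) was lower, with a median difference of 2.24. The share higher was 19.7% over all genes. Histone genes are short, and in the tenth of genes with the shortest span (0.374 to 4.45 kb) 42.4% were higher, with a median of 0.84. The part of gene span in the histone difference was not tested. By type, 5 of 6 H1, 18 of 18 H2A, 15 of 18 H2B, 11 of 12 H3 and 13 of 13 H4 genes were higher. The median level was 237 FPKM in WT and 340 in PKI, against 43.1 in MKI and 281 in HOMO, so MKI was the column that stood low. Hist1h2ai measured 189 FPKM in WT and 535 in PKI, against 3.93 in MKI and 283 in HOMO, and Hist1h2ab 489.9, 502, 27.9 and 379. Hist2h2aa1 differed from this pattern, at 62.2, 288, 90.8 and 600.1 FPKM, with HOMO above all others. Histone genes are near-identical copies that can share reads, so values of individual genes are uncertain. The libraries were selected with oligo(dT) beads, per the labels, and most histone transcripts of dividing cells end in a stem-loop and not in a poly(A) tail. These values therefore describe what passed that selection.

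Since nearly all histone genes differed in 1 direction, the 250 bases before the start of 2 of them are shown, with matches to CCAAT and TATAAA on either strand in capitals (RefSeq, GRCm38.p6). Hist1h2ai is on the plus strand (chr13:21716162-21716411), as is Hist1h2ab (chr13:23750838-23751087).
Hist1h2ai: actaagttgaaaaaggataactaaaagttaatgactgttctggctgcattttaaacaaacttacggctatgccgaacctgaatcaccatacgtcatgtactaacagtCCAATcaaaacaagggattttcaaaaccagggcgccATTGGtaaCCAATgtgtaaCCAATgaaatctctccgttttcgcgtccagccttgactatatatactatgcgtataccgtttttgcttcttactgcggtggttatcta
Hist1h2ab: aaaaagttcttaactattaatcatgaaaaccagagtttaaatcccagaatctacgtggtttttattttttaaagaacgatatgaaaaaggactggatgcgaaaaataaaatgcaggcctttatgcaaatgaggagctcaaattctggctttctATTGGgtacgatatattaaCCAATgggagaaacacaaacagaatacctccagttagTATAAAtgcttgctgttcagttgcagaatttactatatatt
Hist1h2ai holds 4 CCAAT matches and Hist1h2ab 2, beside 1 match to TATAAA in Hist1h2ab. Of 61 tested histone genes with a promoter in the table, 82.0% held CCAAT and 47.5% TATAAA, against 33.8% and 12.4% of all 32851 promoters of the same length. Not every histone gene that was higher has a CCAAT match: Hist1h4j holds none (0) and had a difference of 3.37. A match is a description of these letters only, and its part in the difference was not tested.

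Some of the highest differences came from genes listed at 0 in MKI. Arf6, which encodes a small GTPase of membrane traffic, was listed at 0 in MKI and measured 26.3 FPKM in WT, 30.3 in PKI and 27.4 in HOMO. Blcap, Raver1 and the homeobox genes Msx1 and Msx2 were likewise listed at 0 in MKI, as were 16 annotated genes in all, and no tested annotated gene (0) was listed at 0 in HOMO but not in MKI. Arf6 and Raver1 are expressed in most cells, so an entry of 0 can be a failed estimate, and no fold is given. Igfbp2, which encodes an insulin-like growth factor binding protein, measured 67.8, 94.7, 7.40 and 55.7 FPKM. Zfp146 measured 0.83, 5.25, 0.52 and 20.9 FPKM, with HOMO the highest.

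Of the lower genes with high levels, mt-Co3, a cytochrome oxidase subunit of the mitochondrial genome, measured 1721 FPKM in WT and 2850.4 in PKI, against 4349 in MKI and 1254 in HOMO. Hnrnpa3, an RNA-binding protein gene, measured 42.9, 36.6, 70.6 and 18.3 FPKM. Tdg, a DNA glycosylase gene, measured 25.0, 10.1, 29.7 and 9.94 FPKM, so it was low in both genotypes with a paternal insertion. Hsp90b1, a chaperone gene of the endoplasmic reticulum, measured 205, 207, 383 and 158 FPKM, and Idi1, of sterol synthesis, 31.7, 31.4, 48.3 and 16.8. In these last genes MKI was the high column.

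Of 47 gene lists 39 had at least 5 tested members. The median difference was 0.5 or more for 11 lists and -0.5 or less for 1, beside a median of 0.06 over all genes. In bulk tissue fewer cells of a type and less RNA per cell cannot be told apart. All 11 lists had members at least 2-fold higher, and the highest medians belonged to lens and eye genes (1.45, 4 of 7 higher), p53 target genes (0.95, 6 of 15) and endothelial genes (0.90, 12 of 25). These shares, and the counts of the lists below, are read against 19.7% of all genes higher and 3.64% lower. After the subtraction by gene span these medians were 0.68, 0.41 and 0.64.

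Of 27 tested red cell genes of the definitive lineage 9 were higher and none (0) lower, with a median of 0.53. The median was 0.22 after the median difference of genes of similar span was subtracted. Hba-a2, an adult alpha globin gene, measured 1528 FPKM in WT and 806 in PKI, against 609 in MKI and 2988 in HOMO. Slc4a1, the anion exchanger of the red cell membrane, measured 41.6, 23.2, 16.8 and 52.7 FPKM, and Epor, the erythropoietin receptor, 6.96, 2.74, 1.65 and 5.52. Embryonic globins were high in HOMO too, with Hbb-y at 2334, 3798, 2237 and 5619 FPKM and Hbb-bh1 at 220.2, 548, 91.3 and 374. Globin genes are near copies of each other, which makes the split among them uncertain. miR-451a, a red cell microRNA, was at 1501 RPM in MKI and 854 in HOMO, opposite to the globins, while miR-144-3p of the same cluster was at 42.9 and 84.9.

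Of 25 endothelial genes 12 were higher and none (0) lower. Esam, a junction molecule, measured 6.44 FPKM in WT and 4.03 in PKI, against 1.46 in MKI and 6.07 in HOMO. The transcription factor gene Sox18 measured 4.35, 4.75, 1.20 and 4.80, and Robo4, a receptor of vessels, 2.53, 1.78, 0.75 and 3.27. HOMO and WT were close for Esam and Sox18, and MKI was the low column for all 3. Pecam1 and Kdr, which also mark endothelium, were at like levels, with differences of -0.07 and -0.10. The pericyte and smooth muscle list had 4 of 12 members higher and a median of 0.71, which was 0.18 after the subtraction by gene span. Its largest difference was in Notch3, at 26.5, 16.9, 7.06 and 26.4 FPKM, and the pericyte genes Rgs5 and Abcc9 had differences of -0.38 and -0.47.

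Notch pathway genes, of which Dlk1 is a structural relative, had a median of 0.87, with 10 of 24 higher and 1 lower. The target gene Hes5 measured 21.9 FPKM in WT and 15.2 in PKI, against 2.99 in MKI and 17.7 in HOMO, and Hes6 31.7, 21.9, 6.16 and 28.7. The ligand gene Dll3 measured 6.07, 4.07, 1.54 and 6.75. Rbpj, the DNA-binding partner of the pathway, was lower, at 20.9 in MKI and 9.46 in HOMO. MKI was the low column for Hes5, Hes6 and Dll3 and the high column for Rbpj. The target genes Hey1 and Hey2 were not higher in HOMO, with differences of -0.04 and -0.64.

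Hypoxia and glycolysis genes had a median of 0.75 (0.59 after the subtraction by gene span), with 6 of 24 higher and none (0) lower. The share higher over all genes was 19.7%. Of the 24 members 5 had a difference below 0, among them Ero1l (-0.48) and P4ha1 (-0.47). Ddit4, a stress-induced inhibitor of mTOR, measured 19.2 FPKM in WT and 22.5 in PKI, against 1.94 in MKI and 15.7 in HOMO. Slc2a1, the main glucose transporter, measured 29.9, 27.1, 12.74 and 43.7, and Aldoa, a glycolytic enzyme gene, 169, 164, 64.4 and 200.1. HOMO was the highest column for Slc2a1 and Aldoa. Among p53 targets the cell cycle inhibitor gene Cdkn1a measured 7.57, 6.51, 2.53 and 8.81 and Bax, of the cell death pathway, 26.9, 32.6, 8.52 and 26.4. The p53 target Ccng1, a cyclin gene, was lower, at 22.2 in MKI and 10.5 in HOMO.

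The list of cytosolic ribosomal protein genes had a median of 0.79, with 13 of 36 higher, beside 19.7% over all genes. It leaves out Rpl29, with a difference of -3.34. Of 48 tested genes with an Rpl symbol 11 were higher and 2 lower, with a median of 0.39. Of 43 with an Rps symbol 13 were higher and 1 lower, with a median of 0.54. Rps14 measured 745 FPKM in WT and 1185 in PKI, against 75.5 in MKI and 591 in HOMO, whereas Rps6 was at 1101 in MKI and 741 in HOMO. The list of 36 is made of short genes, with a median span of 3.45 kb. After the median difference of genes of similar span was subtracted its median was -0.06, on the other side of 0. Macrophage genes had a median of 0.83 (C1qa 3.57, 2.73, 0.84 and 3.71 FPKM) and immediate early genes 0.84 (Ier2 15.0, 17.3, 4.54 and 17.9). These medians were 0.31 and 0.08 after the same subtraction.

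The cartilage list had 4 of 16 members higher and none (0) lower, with a median of 0.45, and the matrix list 6 of 23 higher and 1 lower, with a median of 0.47. The counts in this paragraph stand beside 19.7% higher and 3.64% lower over all genes. Col2a1, the main collagen of cartilage, measured 68.0, 27.8, 18.8 and 58.1 FPKM, and Mfap2, of elastic microfibrils, 56.1, 64.3, 11.9 and 57.3. Ogn, a small proteoglycan gene, was lower, at 22.9 in MKI and 10.5 in HOMO, and the matrix genes Lox and Dcn and the cartilage gene Hapln1 had differences of -0.88, -0.60 and -0.66. Skeletal muscle genes had a median of 0.25, with Myog at 20.5, 20.6, 5.17 and 19.9 FPKM and Neb, a giant sarcomere protein gene, at 4.05, 1.63, 7.13 and 2.96. The list was split, with 3 of 25 higher and 1 lower. Hepatocyte genes had a median of 0.19, with 3 of 25 higher (Apom, Hpx and Vtn) and Alb, the albumin gene, lower at 205, 81.1, 542 and 259 FPKM.

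Among imprinted genes outside the domain, the paternally expressed list had a median of -0.34, with 2 of 19 higher, 1 lower and 12 with a difference below 0, and the maternally expressed list a median of 0.00, with 1 of 12 higher. Igf2, the embryonic growth factor gene, measured 379.7 FPKM in WT and 380.01 in PKI, against 170.2 in MKI and 394 in HOMO. Nnat, of developing brain, measured 309, 262, 64.2 and 208. Both were low in MKI and closer to WT in HOMO. Zdbf2 was on the other side, at 21.6 in MKI and 10.02 in HOMO. Of 19 tested genes next to the domain 3 were higher (Ankrd9, Begain and Slc25a29), all of them low in MKI. This count stands beside 19.7% higher over all genes. The median of these 19 genes was 0.27, and 6 had a difference below 0, with Hsp90aa1 the lowest at -0.83.

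Genes of the mitochondrial genome were lower in HOMO. All 13 had a negative difference and 2 passed 2-fold, with a median of -0.64, beside a share of 3.64% lower over all genes. mt-Co1 measured 1936 FPKM in WT and 2464 in PKI, against 3969 in MKI and 2577 in HOMO. The 13 genes summed to 6384, 8204, 12403 and 6449 FPKM, so MKI was the high column and HOMO was close to WT. Cell division genes had a median of -0.44, with 3 of 20 lower: Nusap1, Kif11 and Cenpf, which act on the spindle and kinetochore. Kif11 measured 28.7, 26.7, 51.6 and 23.7 FPKM. Plk1 and Cdc20 had values on the other side, at 11.5 and 22.9 FPKM and 27.5 and 52.95 FPKM in MKI and HOMO. Of 344 tested Zfp genes, mostly zinc finger factors, 36 were higher and 42 lower with a median of -0.43. Over all genes 19.7% were higher and 3.64% lower.

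**Figure D4:**
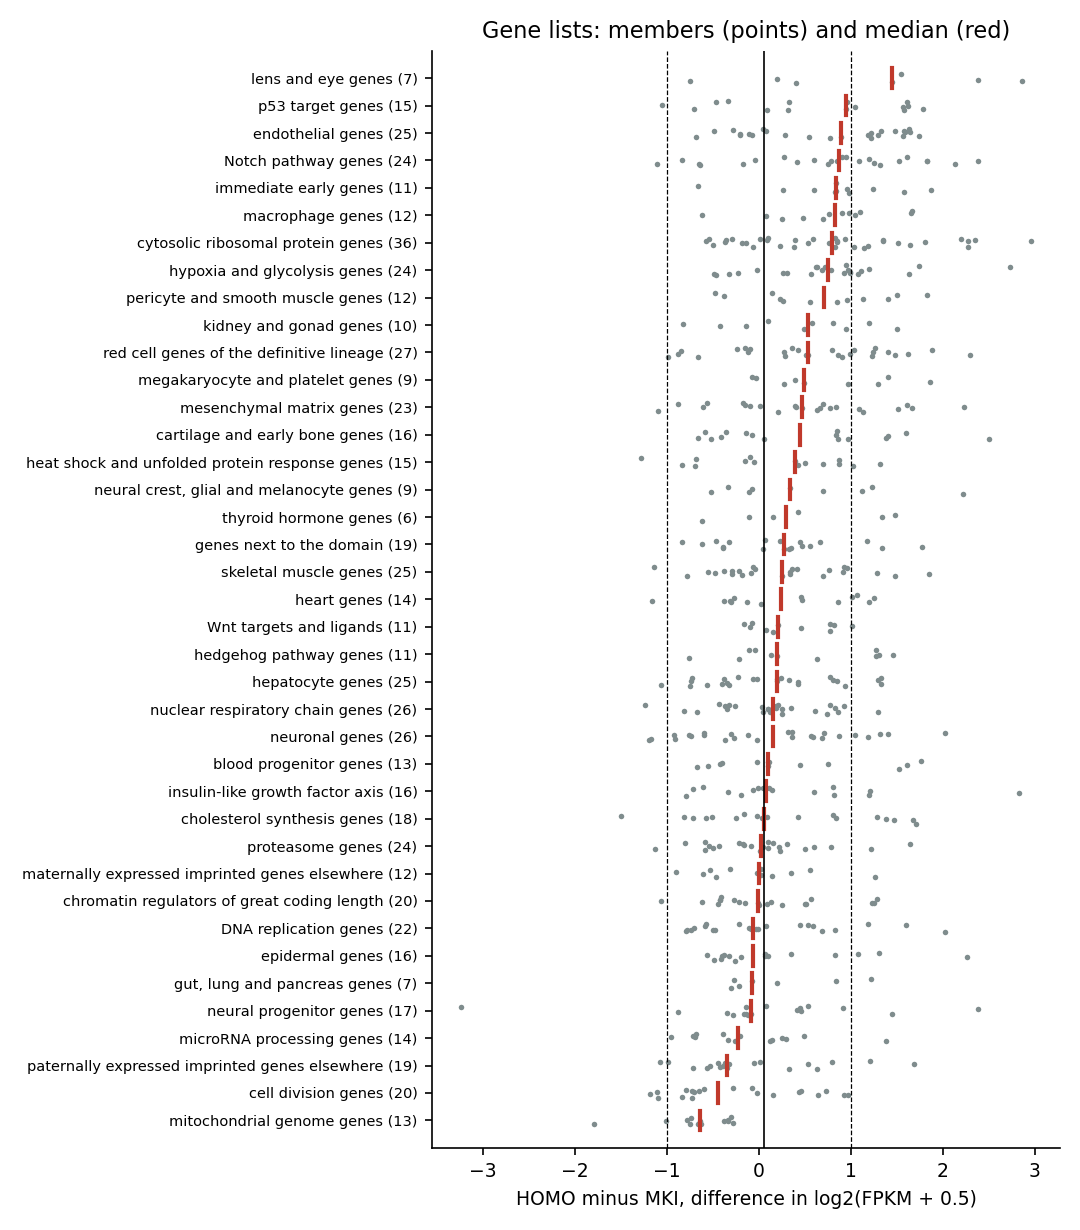
Points are the tested members of 39 lists and red bars the list medians of HOMO minus MKI on the log2(FPKM + 0.5) scale; the number of tested members is in parentheses, the solid line marks the median over all genes (0.06) and the dashed lines 2-fold. The medians run from -0.64 for mitochondrial genome genes to 1.45 for lens and eye genes, and nearly all lists have members on both sides of 0.

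The difference varied with gene span, the distance from start to end in RefSeq. A span was found for 12539 of 12623 annotated tested genes (99.3%), and the rank correlation of span with the difference was -0.37 (across genes, given as a description). In the tenth of genes with the shortest span (0.374 to 4.45 kb) 42.4% were higher in HOMO, with a median of 0.84, and in the tenth with the longest (136 to 2390.4 kb) 3.27% were higher, with a median of -0.26. Between PKI and WT the correlation was -0.29 and the medians ran from 0.11 to -0.22. The part of gene span in the results above was not tested beyond subtracting the median of 20 bins of span, which left 1674 genes higher and 881 lower.

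**Figure D5:**
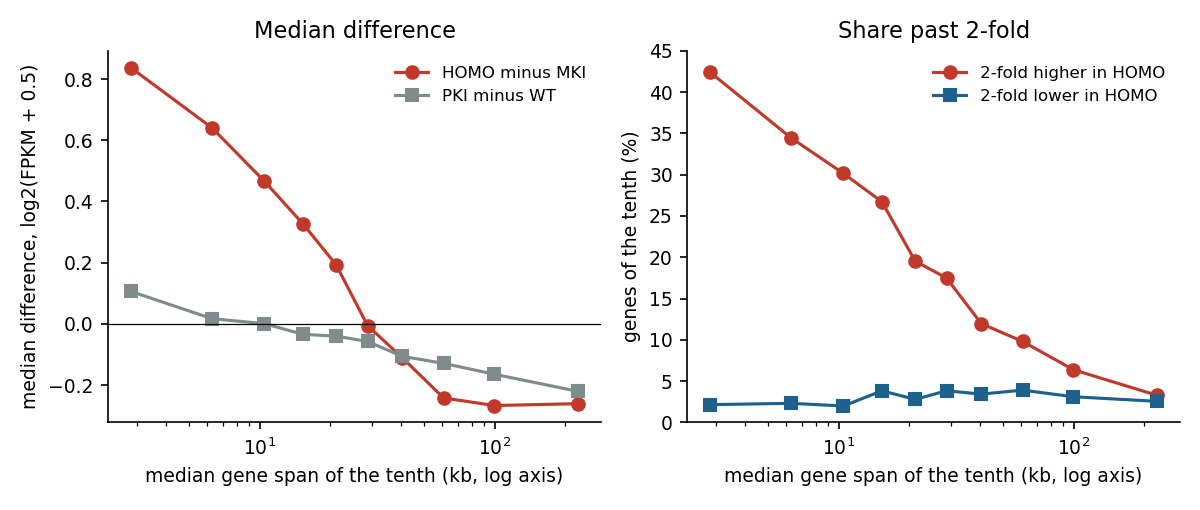
Genes were put in 10 equal groups by span, shown at their median span in kb on a log axis; the left panel gives the median difference in log2(FPKM + 0.5) for HOMO minus MKI and PKI minus WT, the right panel the percentage of genes past 2-fold. The share higher in HOMO runs from 42.4% to 3.27% as span increases, and the share lower stays between 1.99% and 3.91%.

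The paternal insertion can be set beside a wild type maternal copy in PKI and WT, a pair that shares no column with HOMO and MKI. PKI was at least 2-fold higher than WT for 93 genes and lower for 193. Across genes the differences of both pairs correlated at r = -0.04. The genes higher in both pairs numbered 26, which is 0.99% of those higher in HOMO and 28.0% of those higher in PKI. Over all tested genes 0.70% were higher in PKI and 19.7% higher in HOMO. Sumo2, a small ubiquitin-like modifier gene, was among them at 3.68 FPKM in WT and 113 in PKI, against 7.64 in MKI and 86.5 in HOMO, so it was high in both genotypes with a paternal insertion. Hist2h2aa1, Zfp146, Hbb-bh1 and Krt14 also belong to this group. The genes lower in both pairs numbered 11 and included Sox2, Tdg, Alb, Ctse and Neb. Genes that were higher in HOMO and lower in PKI numbered 50, which is 1.91% of those higher in HOMO and 25.9% of those lower in PKI. Over all tested genes 1.45% were lower in PKI. For genes higher in HOMO the shares in the same and in opposite directions were thus of like size. Genes lower in HOMO and higher in PKI numbered 12 of the 93 higher in PKI. Those lower in both pairs were 11 of the 193 lower in PKI. For genes lower in HOMO the share was thus larger in the opposite direction, beside 3.64% of all tested genes lower in HOMO. Dlk1 was higher in HOMO than in MKI and measured 55.7 FPKM in PKI and 80.5 in WT, a difference of -0.53.

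The Y-linked genes Eif2s3y, Ddx3y, Uty and Kdm5d were expressed in MKI, PKI and HOMO and listed at 0 in WT. Eif2s3y measured 14.4 FPKM in PKI, 29.7 in MKI and 14.9 in HOMO, and the median difference of the 4 genes between HOMO and MKI was -0.69. The labels do not state how embryos of each sex were shared out among the columns, and the part of sex in the results was not tested.

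Among long non-coding RNAs, 300 of 6181 tested transcripts were higher in HOMO (4.85%) and 748 were lower (12.1%), with a median difference of -0.45. This direction depends on the scaling: after quantile normalization 432 were higher and 293 lower, and with TMM factors 516 and 278. The transcript MSTRG.23398.6, assembled by the authors, measured 14818 FPKM in WT and 29660.3 in PKI, against 2.92 in MKI and 13466 in HOMO. It held 32.2%, 44.7% and 34.8% of all FPKM of the table in WT, PKI and HOMO, and the column sums were 45971, 66401, 15573 and 38677 FPKM. ENSMUST00000152754 was higher as well, at 0.11 FPKM in MKI and 56.9 in HOMO. Of the lower transcripts ENSMUST00000172812 measured 631, 301, 756 and 26.2 FPKM, so HOMO stood apart, and MSTRG.53146.5 was at 11.2 in MKI and listed at 0 in HOMO. None of these transcripts was matched to a gene name.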

How the data were processed

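Per the labels' protocols, RNA of whole embryos was selected with oligo(dT) and sequenced; the labels do not describe how small-RNA libraries were made. The submitters' processing notes list StringTie 1.3.4d, HISAT2 2.0.4, cutadapt 1.9 and the build GRCm38, and also edgeR and DESeq2 with no version and no stated use. The deposited mRNA and long non-coding values were read as FPKM made by the authors, a unit the headers do not name; depth behind them is unknown. The deposited microRNA values are RPM, and 100% of them were whole multiples of 1 read (tolerance 0.02), which gave reads back. Of 29639 mRNA entries 22022 were matched to a symbol, and 40 entries sharing 20 symbols were summed. Differences were taken on log2(value + 0.5) in Python 3.11.15; TMM factors came from edgeR 4.0.16. Intervals are exact conditional 95% intervals for a ratio of reads. Scripts were tested on simulated data.

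Lists, members and alternatives were chosen with earlier results of these data known. Named genes were, per side, the 12 largest differences at 2 FPKM or more and the 10 largest at 20 FPKM or more, up to 4 members per list, domain genes and Y-linked genes; the text describes a selection of these, and some other list members are named as contrast after their values were seen. Outside the domain, up to 8 microRNAs per side at 50 RPM were named, with the miR-29 family and all others past 2-fold. Mature sequences were found for 426 of 505 tested microRNAs.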

Additional observations from a re-analysis of the deposited data

Results flagged for a closer look

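The following genes were past 2-fold in opposite directions in HOMO against MKI and in PKI against WT. The difference between the pairs was not tested, since each genotype has 1 column. Values are the log2 difference of HOMO and MKI minus that of PKI and WT. Among cartilage, matrix and lens genes it was 2.88 for Col2a1, 2.60 for Col11a2, 2.81 for Eln, 2.45 for Cryaa and 2.85 for Cryge. Among blood genes it was 2.69 for Epor, 3.26 for Gfi1b, 3.21 for Itga2b, 3.03 for Pf4, 2.45 for Treml1 and 3.19 for Mpo. Gfi1b encodes a transcriptional repressor expressed in red cell and platelet lineages. Apom, an apolipoprotein gene, had 2.40. All of these were low in both PKI and MKI. Lower in HOMO and higher in PKI were Rps27rt (-3.82), Gm7879 (-3.47), 4930522L14Rik (-3.35) and 1810022K09Rik (-2.71). Gm49450 had 13.62, and it was listed at 0 in PKI and MKI, so this value depends on the pseudocount and is no fold.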

How the results depend on the processing

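No paired analysis was possible because the columns carry no replicate number, and leaving out replicates could not be run with 1 column per genotype. The interval of a read ratio, the subtraction by gene span and leaving out the most abundant member of a domain group were chosen after seeing the data; the cause of the shifts was not tested. Counts are higher and lower in HOMO. For genes (2615 and 484), 732 were lower with no filter, 303 with the stricter filter; quantile normalization gave 1711 and 1075, and gene-span bins 1674 and 881. For long non-coding RNA (300 and 748), a pseudocount of 0.1 gave 520 and 1641, of 1 gave 136 and 319, no filter 555 and 1540, the stricter filter 69 and 136, quantile normalization 293 lower, and TMM 516 and 278. For microRNA (16 and 3), no filter gave 118 and 46, the stricter filter 4 and 0, quantile normalization 10 higher, TMM 7 lower, and intervals beyond 2-fold 9 higher. In the domain (8 and 2), a pseudocount of 1 gave 5 higher, the stricter filter 4 and 0, quantile normalization 3 and 1, TMM 5 and 4, and intervals 3 and 1. Outside it (8 and 1), no filter gave 109 and 44, the stricter filter 0 and 0, quantile normalization 2 lower and TMM 3 lower. For genes past 2-fold in both pairs (26 both higher, 11 both lower, 50 and 12 opposite), a pseudocount of 0.1 gave 30 both lower and 116 and 19 opposite, of 1 gave 24 higher in HOMO and lower in PKI, no filter 18 both lower, the stricter filter 6 both lower and 23 and 5 opposite, and quantile normalization 21 and 24 opposite. Lists with medians of 0.5 or more (11) numbered 5 with quantile normalization and 5 with gene-span bins; those at -0.5 or less (1) numbered 2 with TMM and 2 with gene-span bins. The ribosomal median changed sign, from 0.79 to -0.059, with gene-span bins, and the summed ratio of the third domain group went from 0.89 to 1.06 without miR-541-5p. Depth limits the domain microRNAs, with a median of 67 reads in MKI and 64 in HOMO.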

Other observations

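Of 13 microRNA seed families with at least 3 tested members, some had all members on 1 side of 0 and others did not. In the family with the seed AGCAGCA 3 of 6 were above 0, from -0.26 to 0.47. All 9 tested let-7 family members with the seed GAGGUAG were higher in HOMO than in MKI, by 0.07 to 0.62 on the log2 scale (median 0.32), beside a median of 0.13 over all tested microRNAs. All 4 members with the seed ACAUUCA, the miR-181 family, were lower, by differences of -0.36 to -0.27. The 4 members with the seed GUAAACA, the miR-30 family, lay between -0.41 and -0.09. No member (0) of these families passed 2-fold. These differences are under the deposited scaling. TMM factors moved the median of all microRNAs to -0.02, so the side of members near 0 depends on the scaling.

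The share of genes higher in HOMO differed by chromosome. It was 32.4% on chromosome 7 and 31.3% on chromosome 15, and 7.67% on chromosome X and 9.64% on chromosome 12, which holds the domain. Median gene span was 17.6 kb on chromosome 7 and 34.5 kb on chromosome 12, and its part in these shares was not tested.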
